A study of Homo sapiens with 15 samples.

Results

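The retinoid receptors and their coregulators described here are 9 genes, RARA, RARB, RARG, RXRA, RXRB, NCOR1, NRIP1, NCOA3 and PPARD, out of 43388 genes with a row in each count table. They were chosen by name, as receptors for retinoic acid, their dimer partners and the proteins that those receptors bind. All-trans retinoic acid (ATRA) is the ligand of the retinoic acid receptors RARA, RARB and RARG, which sit on DNA as heterodimers with a retinoid X receptor such as RXRA or RXRB. Without ligand the heterodimer holds corepressors such as NCOR1, which recruits histone deacetylases, and with ligand it exchanges them for coactivators such as NCOA3, a p160 family protein. NRIP1 (RIP140) also binds through its LXXLL motifs to the liganded receptor but represses it, and PPARD is a fatty acid receptor that shares the RXR partner and can itself be reached by retinoic acid carried by FABP5. In lung, retinoic acid signalling takes part in the formation and repair of alveoli.

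RNA was sequenced from A549 cells, a human lung adenocarcinoma line of wild-type genotype used as a model of alveolar epithelium, and all libraries came from this single line. Cells were given 1e-05 mM ATRA or its ethanol vehicle for 24 hours and then kept for 72 hours in hyperoxia (95% O2) or normoxia (21% O2). There were 3 libraries with ATRA and 2 with vehicle at each oxygen exposure, and 2 more at each exposure whose labels name neither ATRA nor vehicle, called untreated here. No label says that libraries of a group came from separate cultures, so p-values measure only the spread between these libraries, and in bulk RNA fewer cells of a kind and less RNA per cell cannot be told apart.

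Total gene counts ran from 2642377 to 5605072 per library, and a member had between 18 and 2311 counts in a library. Levels are given as CPM, which are counts corrected for the size of each library, and a floor of 3 counts corresponded to between 0.530 and 1.15 CPM (counting error only). Hyperoxia untreated replicate 1 stood apart. It had a count for 12657 genes, against 16465 to 20108 in the other 13 grouped libraries, and it differed from replicate 2 of its group by a chi-square of 31.5 per degree of freedom, against 3.98 to 16.8 for the other replicate pairs. Fold changes that use the untreated hyperoxia libraries are also given without it, for NCOA3 as a range. The epithelial markers KRT8, KRT18, KRT19, EPCAM and CDH1 together ranged from 1685 to 2091 CPM in hyperoxia without ATRA and 2805 to 4203 CPM with it. In normoxia they ranged from 5743 to 6841 CPM without ATRA and 6896 to 9562 CPM with it. KRT8 and KRT18 made up most of each sum. In normoxia KRT19 was lower with ATRA (60.9 to 86.4 CPM) than with vehicle (95.2 to 95.6 CPM), while the rest of the list had higher means. None of these 5 markers passed an adjusted p of 0.05 for ATRA in normoxia, where 1.25% of all tested genes did. In hyperoxia 4 of 5 passed, all higher with ATRA, where 2.21% did. For hyperoxia against normoxia 4 of 5 passed with vehicle and 4 with ATRA, all lower, where 17.5% and 22.7% did. Between untreated libraries 3 of 5 passed, all lower, where 15.2% did. For the difference between the ATRA effects at the 2 exposures 1 of 5 passed, where 0.14% did. The part of the epithelial markers in the results below was not tested. Alveolar type II markers summed to at most 3.43 CPM, with SFTPA1 and SFTPA2 at 0 in every grouped library. The leukocyte list ranged from 17.4 to 32.8 CPM in normoxia and from 60.4 to 103 CPM in hyperoxia through CD68, while CD3E was at 0 and PTPRC reached at most 0.177 CPM. Of 5 direct retinoic acid response genes checked, CYP26B1, DHRS3, STRA6 and TGM2 rose with ATRA at both oxygen exposures. The log2 fold change of CYP26B1, which degrades retinoic acid, was 3.70 in normoxia and 4.13 in hyperoxia (adjusted p = 7.38e-08 and 2.54e-08, edgeR's quasi-likelihood test).

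All 9 genes had counts in every grouped library and passed the filter on low counts. Levels of different genes can be compared only per length, so CPM was divided by the kilobases of annotated exon of each gene. On that scale the order of medians over the 14 grouped libraries was NCOA3 (29.8 CPM per kb), NCOR1 (21.0), NRIP1 (12.5), RARA (10.3), RXRB (8.58), RXRA (6.48), RARG (5.64), PPARD (3.79) and RARB (2.14). In these medians the coactivator and both corepressors were listed above every receptor, but group means did not all keep the order. RARA was above NRIP1 in hyperoxia with vehicle (11.0 against 10.3 CPM per kb) and untreated (11.2 against 10.1), and RXRB (11.4) was above RARA in hyperoxia with vehicle. The ranges of each pair of neighbours over the 14 libraries overlapped, so these ranges alone do not separate neighbouring ranks. Within each of the 14 libraries, however, NCOA3 was above NCOR1, at between 1.11 and 2.17 times its level per kb. RXRG, the remaining RXR gene, was at 0 in all 14 libraries.

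RARB lies at chr3:24829321-25597932 on the plus strand (GRCh38.p14, RefSeq) and is the receptor gene best known as a target of its own protein family. Its promoter at an internal start site, 1 of 4 RARB start sites in RefSeq, is shown because it alone among 19 promoter windows of the 9 genes holds a direct repeat of the receptor core element. A window spans 250 bases before a start and 50 after it. The core elements searched on both strands were AGGTCA as the consensus, with AGTTCA as a variant, GGGTCA as another variant, and GGTTCA as the last variant, alone or as direct repeats spaced by 1, 2 or 5 bases, so that each repeat also counts as core elements. The capitals mark the repeat spaced by 5, the spacing classically bound by an RAR and RXR pair. It runs from base -53 to base -37, with the start base as 0, in the window chr3:25428013-25428312 on the plus strand.
RARB promoter: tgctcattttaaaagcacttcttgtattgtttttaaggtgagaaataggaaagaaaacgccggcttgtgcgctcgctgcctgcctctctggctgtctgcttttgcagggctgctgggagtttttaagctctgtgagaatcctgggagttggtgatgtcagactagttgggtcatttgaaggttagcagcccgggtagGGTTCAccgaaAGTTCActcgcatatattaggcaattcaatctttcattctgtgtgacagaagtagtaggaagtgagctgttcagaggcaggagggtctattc
Such a repeat was present in 31 of 35116 promoter windows in the RefSeq table (0.0883%). Repeats spaced by 1 and by 2 were in 0.131% and 0.0399% of all windows and in none of the 19. For contrast, the window of NRIP1 at chr21:15065887-15066186 on the minus strand holds only a single core element, in capitals, from base -75 to base -70. A single element is common, being in 38.6% of all windows and in 6 of the 19 windows of these genes.
NRIP1 promoter: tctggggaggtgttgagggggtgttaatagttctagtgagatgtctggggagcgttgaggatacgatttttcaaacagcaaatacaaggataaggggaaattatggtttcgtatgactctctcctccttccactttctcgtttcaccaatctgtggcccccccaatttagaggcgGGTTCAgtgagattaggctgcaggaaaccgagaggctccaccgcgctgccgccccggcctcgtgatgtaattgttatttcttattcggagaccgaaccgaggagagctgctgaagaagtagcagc
A match of letters is a description of the window. Counts per gene do not tell which start site a transcript used.

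The first question was how ATRA changed its own receptors and their coregulators. RARB showed the largest fold difference among the 9 genes at both oxygen exposures, and NRIP1 passed the test at both. In normoxia, 2 of the 9 genes passed an adjusted p of 0.05 (RARB and NRIP1, both higher with ATRA), where 1.25% of all 14957 tested genes did. In hyperoxia, 1 of 9 passed (NRIP1), where 2.21% of all tested genes did. The median log2 fold change of the 9 genes was 0.26 in normoxia and 0.40 in hyperoxia, against 0.00 for all tested genes in both, and 7 of the 9 were higher with ATRA at both exposures, as were 28.3% of all tested genes. The 7 include RXRA, at 0.01 in normoxia and -4.87e-05 with no filter on low counts, and PPARD, which in hyperoxia was at -0.45 against untreated and -0.10 against pooled controls of 14 libraries. Both PPARD values include hyperoxia untreated replicate 1, at 31.8 CPM against 17.9 CPM in replicate 2.

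In normoxia, RARB stood at 45.1, 37.1 and 39.3 CPM in the 3 libraries with ATRA, 6.26 and 22.5 CPM with vehicle and 15.6 and 18.2 CPM untreated. In hyperoxia it stood at 35.5, 28.7 and 22.2 CPM with ATRA, 13.8 and 11.3 CPM with vehicle and 14.4 and 9.45 CPM untreated. At both exposures every library with ATRA was above every library without it, although normoxia vehicle replicate 1, with 18 counts, was well below replicate 2. RARB rose with ATRA in normoxia by a log2 fold change of 1.41 (SE 0.35, adjusted p = 0.0469 by the quasi-likelihood test of edgeR), which is 2.66-fold. In hyperoxia its log2 fold change was 1.21 (SE 0.35, adjusted p = 0.0862), 2.32-fold, with a 95% interval from 0.47 to 1.95. The size in normoxia depended on which vehicle library was kept, being 2.69 (adjusted p = 0.00331) without normoxia vehicle replicate 2. The call was lost on leaving out normoxia vehicle replicate 1 (log2 fold change 0.84, adjusted p = 0.822), normoxia ATRA replicates 1, 2 or 3 (0.177, 0.0815 and 0.0862), hyperoxia ATRA replicates 2 or 3 (0.0542 and 0.0563) or hyperoxia vehicle replicates 1 or 2 (0.0561 and 0.0542). In hyperoxia RARB passed on leaving out normoxia vehicle replicate 1 or 2 (adjusted p = 0.0217 and 0.0253).

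With vehicle and untreated libraries pooled as controls, and the untreated library that stood apart left out (13 libraries, a choice made after seeing the data), RARB rose with ATRA by 1.33 in normoxia (adjusted p = 0.00329) and by 1.32 in hyperoxia (adjusted p = 0.012) on the log2 scale. Against untreated libraries alone the normoxia value was 1.26 (adjusted p = 0.458), and with all 14 libraries in 6 groups it was 1.45 (adjusted p = 0.279). In the 13-library fit with pooled controls, 3 of the 9 genes passed in normoxia (RARB, NRIP1 and NCOA3), where 2.49% of 14617 tested genes did. In hyperoxia 2 passed in the same fit (RARB and NRIP1), where 3.09% did. TOP2B, a DNA topoisomerase gene on the opposite strand, overlaps RARB and held 665% as many counts. With ATRA, TOP2B had a log2 fold change of 0.34 in normoxia and 0.04 in hyperoxia (adjusted p = 0.612 and 0.954). The libraries are stranded, but the strand setting of the counting is not given in the sources used here.

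RARA, the broadly expressed receptor (chr17:40309180-40357643, plus strand), was also higher with ATRA without passing the test. In normoxia it stood at 60.0, 46.5 and 47.4 CPM with ATRA, 34.4 and 41.5 CPM with vehicle and 33.2 and 39.3 CPM untreated. In hyperoxia it stood at 79.7, 70.4 and 68.0 CPM with ATRA, 54.3 and 50.1 CPM with vehicle and 47.9 and 58.6 CPM untreated. The libraries with and without ATRA did not overlap at either exposure. Its log2 fold change was 0.42 in normoxia (95% interval 0.04 to 0.81, adjusted p = 0.487) and 0.48 in hyperoxia (0.11 to 0.85, adjusted p = 0.203). RARG, the receptor prominent in skin and other epithelia (chr12:53210569-53232209, minus strand), ranged from 27.3 to 47.8 CPM with ATRA and from 23.2 to 33.5 CPM without it in normoxia, so that the groups overlapped. In hyperoxia it ranged from 31.8 to 39.5 CPM with ATRA and from 11.8 to 26.1 CPM without, with no overlap. Its log2 fold change was 0.32 in normoxia (95% interval -0.19 to 0.84) and 0.60 in hyperoxia (0.08 to 1.12, adjusted p = 0.274).

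**Figure D1:**
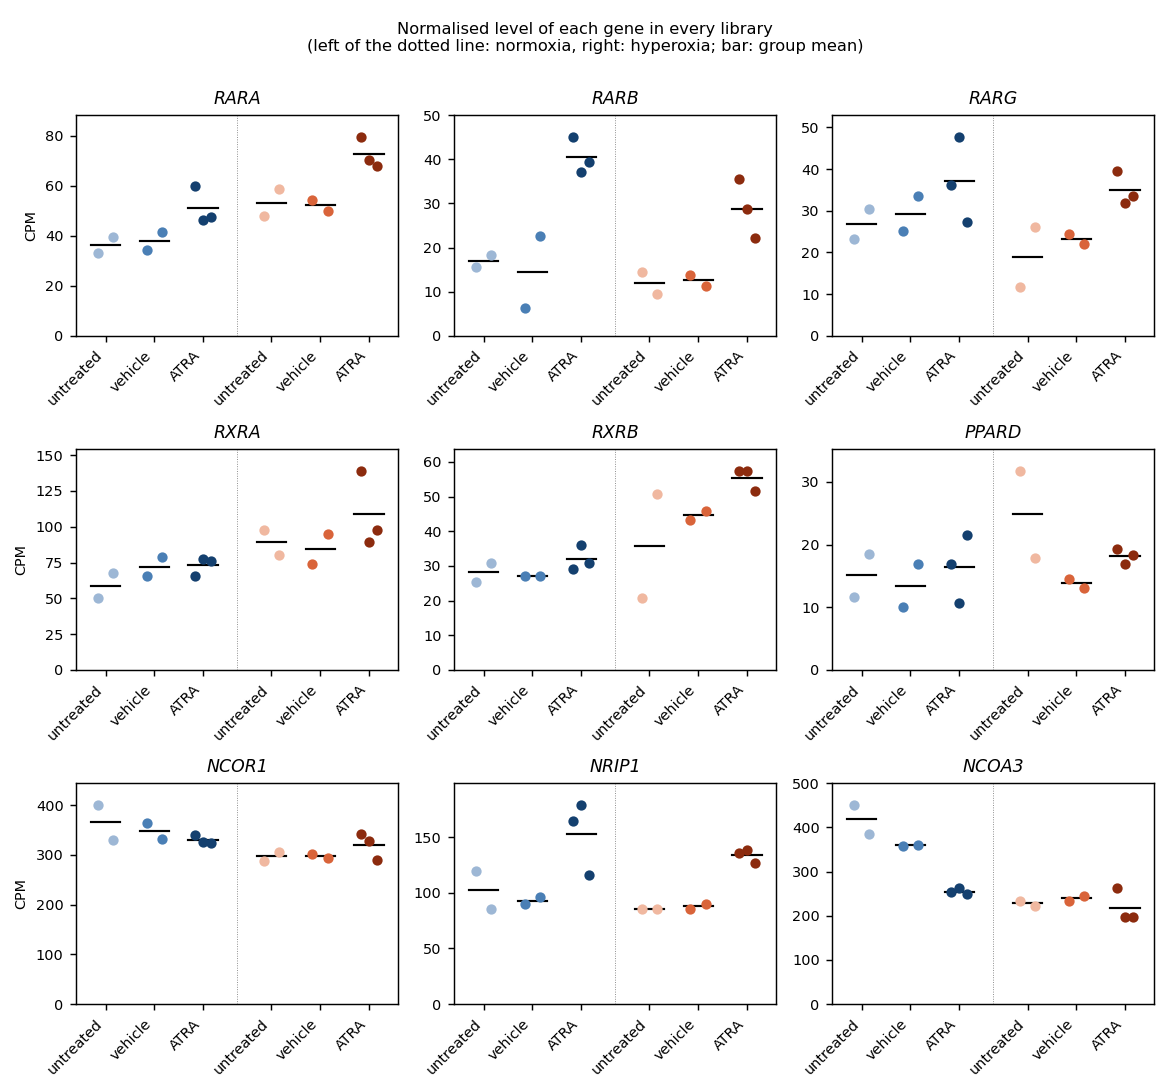
Normalised level (CPM, vertical axis from 0) of each of the 9 genes in every grouped library, with normoxia in blue to the left of the dotted line, hyperoxia in red to the right, and the group mean as a bar. The RARB libraries with ATRA sit between 37.1 and 45.1 CPM in normoxia and between 22.2 and 35.5 CPM in hyperoxia, above all libraries without ATRA at the same exposure, and NCOA3 is highest in normoxia without ATRA (359 to 451 CPM).

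The 3 receptor genes were also compared as shares of their summed level per kilobase. The sum ranged from 12.8 to 17.7 CPM per kb in normoxia and from 13.9 to 18.4 in hyperoxia without ATRA, and from 19.5 to 24.5 and 23.2 to 28.3 with it. RARA made up the largest share in every library. RARB made up 17.1% to 21.4% of the sum in normoxia with ATRA, 10.1% to 13.3% in hyperoxia with ATRA, 5.18% to 13.5% in normoxia without ATRA and 5.42% to 10.9% in hyperoxia without it. RARA made up 42.5% to 56.7% in normoxia and 59.4% to 72.6% in hyperoxia, with no overlap between the exposures. These shares use 1 exon length per gene and are given without a test.

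**Figure D2:**
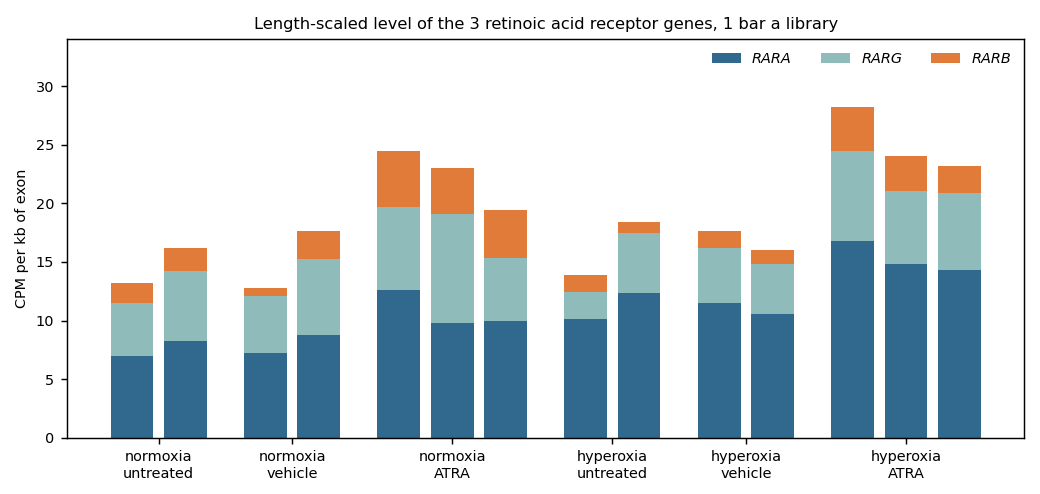
Length-scaled level (CPM per kb of annotated exon, stacked bars from 0) of RARA, RARG and RARB in each of the 14 grouped libraries. The bars with ATRA reach 19.5 to 28.3 CPM per kb against 12.8 to 18.4 without it, and the RARB segment is tallest in normoxia with ATRA.

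NRIP1, a ligand-dependent corepressor known for metabolic control (chr21:14961235-15065936, minus strand), had the smallest p of the 9 genes for ATRA at both exposures. In hyperoxia it stood at 136, 139 and 127 CPM with ATRA, 85.6 and 90.0 CPM with vehicle and 85.5 and 85.3 CPM untreated. In normoxia it stood at 164, 179 and 116 CPM with ATRA, 89.7 and 96.0 CPM with vehicle and 119.5 and 85.2 CPM untreated. The ATRA libraries were well separated in hyperoxia, whereas in normoxia ATRA replicate 3 lay just below untreated replicate 1. NRIP1 rose with ATRA by a log2 fold change of 0.72 in normoxia (SE 0.16, adjusted p = 0.0243) and 0.61 in hyperoxia (SE 0.16, adjusted p = 0.0498), which is 1.64-fold and 1.52-fold. In the 13-library fit with pooled controls these were 0.64 (adjusted p = 0.00648) and 0.62 (adjusted p = 0.0187). Neither passed with all 14 libraries in 6 groups (adjusted p = 0.137 and 0.218) or against untreated libraries (0.364 and 0.140), and with 13 libraries in 6 groups the adjusted p was 0.0394 in normoxia and 0.0809 in hyperoxia. The normoxia call was lost on leaving out normoxia ATRA replicates 1 or 2 (adjusted p = 0.115 and 0.0950) or normoxia vehicle replicates 1 or 2 (0.384 and 0.204). The hyperoxia call, close to the threshold, was lost on leaving out hyperoxia ATRA replicates 1, 2 or 3 (0.0887, 0.128 and 0.0583), hyperoxia vehicle replicates 1 or 2 (0.499 and 0.311), normoxia ATRA replicate 1 (0.0669) or normoxia vehicle replicates 1 or 2 (0.0756 and 0.0763).

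NCOA3, the p160 coactivator (chr20:47501887-47656872, plus strand), was the only member lower with ATRA at both exposures, and in normoxia it came close to the threshold. In normoxia it stood at 253, 263 and 249 CPM with ATRA, 359 and 359.5 CPM with vehicle and 451 and 386 CPM untreated. All 3 ATRA libraries were below all 4 without ATRA. Its log2 fold change was -0.50 (SE 0.13, adjusted p = 0.0641), and it was -0.61 (adjusted p = 0.00164) in the 13-library fit with pooled controls, -0.72 (adjusted p = 0.0182) against untreated libraries and -0.50 (adjusted p = 0.00915) by DESeq2. It did not pass with all 14 libraries in 6 groups (-0.50, adjusted p = 0.168) or in the additive model (-0.31, adjusted p = 0.129). It also passed on leaving out hyperoxia ATRA replicate 1 (adjusted p = 0.0130). In hyperoxia NCOA3 stood at 262, 196 and 197 CPM with ATRA, against 222 to 245 CPM without, and the log2 fold change was -0.13 (95% interval -0.40 to 0.14).

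The dimer partners and the remaining members did not pass for ATRA. RXRA (chr9:134326455-134440585, plus strand), the RXR that most tissues express, had a log2 fold change of 0.01 in normoxia (95% interval -0.38 to 0.40) and 0.37 in hyperoxia (-0.01 to 0.75). RXRB (chr6:33193588-33200853, minus strand) had 0.23 (-0.18 to 0.65) and 0.31 (-0.08 to 0.70). NCOR1, the corepressor scaffold (chr17:16029157-16215534, minus strand), had -0.08 (-0.32 to 0.16) and 0.10 (-0.14 to 0.34), the narrowest intervals of the 9 genes. For PPARD, which regulates fatty acid oxidation (chr6:35342558-35428178, plus strand), the values were 0.26 (-0.44 to 0.96) and 0.40 (-0.29 to 1.10). PPARD had the lowest median CPM of the set, and its intervals leave room for a rise of about 2-fold at either exposure. TTC19, on the opposite strand to NCOR1, overlaps it and held 15.9% as many counts. With ATRA, TTC19 had a log2 fold change of 0.03 in normoxia and 0.34 in hyperoxia (adjusted p = 0.990 and 0.483, edgeR).

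**Figure D3:**
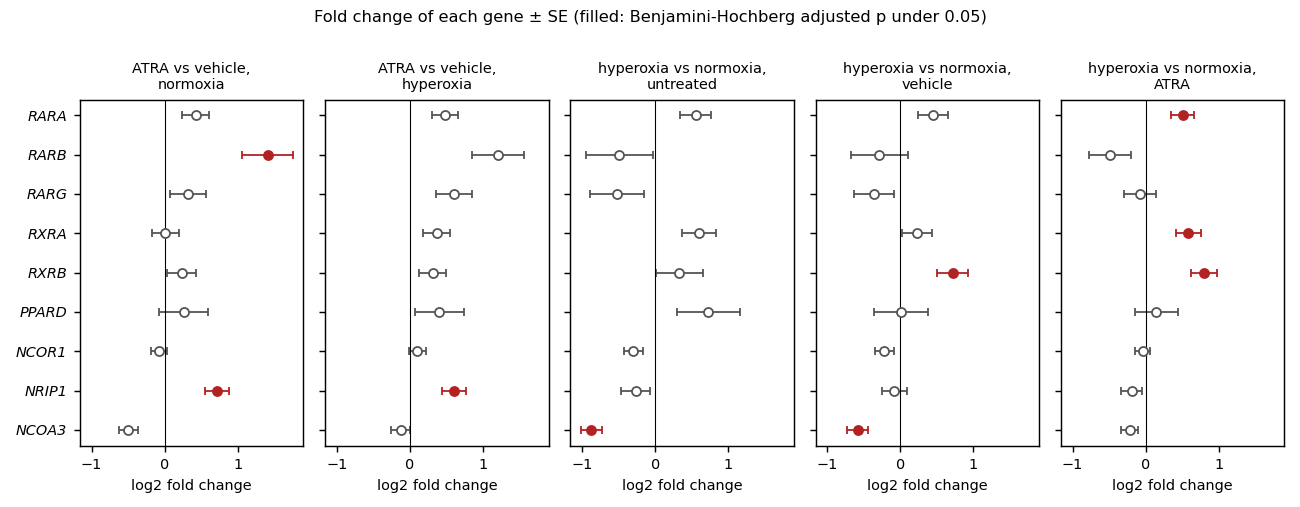
Log2 fold change (horizontal axis) with its SE for each of the 9 genes in 5 comparisons, filled red where edgeR gave an adjusted p under 0.05. RARB lies farthest from 0 for ATRA (1.41 and 1.21), and RXRB (0.72 and 0.80) and NCOA3 (-0.59 and -0.87) are called in 2 oxygen comparisons each.

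The second question was how hyperoxia changed the same genes. RXRB, RXRA and RARA were higher and NCOA3 was lower in hyperoxia, while RARB and RARG did not pass. With vehicle, 2 of 9 genes passed (RXRB and NCOA3), where 17.5% of all tested genes did. With ATRA, 3 of 9 passed (RARA, RXRA and RXRB), where 22.7% did. Between untreated libraries 1 of 9 passed (NCOA3), where 15.2% of 15339 tested genes did. Shares of this size are near the background and say nothing about the 9 genes as a set. The comparisons with vehicle and with ATRA share no library, and all 9 genes had the same sign in both, as did 73.8% of all tested genes, although PPARD with vehicle was at 0.00. In a model with oxygen and ATRA as additive terms over the 10 libraries, chosen after seeing the data, 4 of 9 genes passed for oxygen (RARA, RXRA, RXRB and NCOA3), where 32.1% of all genes did. For the ATRA term of that model 2 of 9 passed (RARB and NRIP1), where 2.81% did.

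RXRB was called for oxygen both with vehicle and with ATRA. In hyperoxia it stood at 43.2 and 45.9 CPM with vehicle and 57.3, 57.4 and 51.7 CPM with ATRA, against 27.1 and 27.1 CPM with vehicle and 29.2, 35.9 and 30.7 CPM with ATRA in normoxia. The untreated libraries stood at 20.8 and 50.8 CPM in hyperoxia and 25.4 and 30.9 CPM in normoxia. Apart from the untreated library that stood apart, at 20.8 CPM, every hyperoxia library was above every normoxia library. RXRB rose in hyperoxia by a log2 fold change of 0.72 with vehicle (SE 0.21, adjusted p = 0.0214) and 0.80 with ATRA (SE 0.17, adjusted p = 0.00175), which is 1.64-fold and 1.74-fold. Between untreated libraries it was 0.33 (95% interval -0.35 to 1.01), and 0.85 (adjusted p = 0.0340) without hyperoxia untreated replicate 1. The call with vehicle was lost on leaving out hyperoxia vehicle replicates 1 or 2 (adjusted p = 0.110 and 0.192) or normoxia vehicle replicates 1 or 2 (0.144 and 0.163). It stood at 0.74 (adjusted p = 0.000485) in the 13-library fit with pooled controls, 0.53 (adjusted p = 0.0950) with pooled controls of 14 libraries and 0.72 (adjusted p = 0.212) with 14 libraries in 6 groups.

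RXRA stood at 74.2 and 95.2 CPM with vehicle, 139, 89.5 and 97.7 CPM with ATRA and 97.7 and 80.5 CPM untreated in hyperoxia. In normoxia it stood at 65.3 and 78.7 CPM with vehicle, 65.7, 77.7 and 75.7 CPM with ATRA and 49.9 and 67.9 CPM untreated. The exposures overlapped with vehicle and did not with ATRA or untreated, and hyperoxia ATRA replicate 1 was the highest library. RXRA rose in hyperoxia with ATRA by 0.59 on the log2 scale (SE 0.17, adjusted p = 0.0134). The call was lost without hyperoxia ATRA replicate 1 (log2 fold change 0.36, adjusted p = 0.101) or normoxia ATRA replicate 1 (0.51, adjusted p = 0.0674). With vehicle the value was 0.23 (95% interval -0.19 to 0.65), and untreated it was 0.60 (0.11 to 1.09, adjusted p = 0.0914), or 0.45 (adjusted p = 0.328) without hyperoxia untreated replicate 1.

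RARA, with the CPM values given above, was higher in every hyperoxia library than in every normoxia library of the same treatment. The log2 fold change was 0.50 with ATRA (SE 0.16, adjusted p = 0.0265), 0.45 with vehicle (SE 0.20, adjusted p = 0.140) and 0.55 untreated (SE 0.21, adjusted p = 0.0950), or 0.69 (adjusted p = 0.0773) without hyperoxia untreated replicate 1. The call with ATRA was lost on leaving out hyperoxia ATRA replicate 1 (adjusted p = 0.0807), normoxia ATRA replicates 2 or 3 (0.0789 and 0.117) or hyperoxia vehicle replicates 1 or 2 (0.0584 and 0.0580). Across the 13-library fit with pooled controls the difference without ATRA was 0.53 (adjusted p = 0.00624). In that fit 4 of 9 genes passed for oxygen (RARA, RXRB, NCOR1 and NCOA3), where 31.1% of 14617 tested genes did. RARB was lower in hyperoxia in all 3 treatments, by -0.29 with vehicle (95% interval -1.10 to 0.52), -0.49 with ATRA (-1.10 to 0.12) and -0.49 untreated (-1.46 to 0.48, or -0.84 without hyperoxia untreated replicate 1), and passed in none. With vehicle it turned to 0.97 (adjusted p = 0.222) without normoxia vehicle replicate 2 and was -0.88 at the lowest among fits that left out 1 library. Overlapping TOP2B fell in hyperoxia by 0.64 with vehicle and by 0.94 with ATRA on the log2 scale (adjusted p = 0.0228 and 0.000145), and its part in the RARB difference was not tested. RARG had log2 fold changes of -0.36 with vehicle (-0.93 to 0.21), -0.08 with ATRA (-0.53 to 0.38) and -0.52 untreated (-1.31 to 0.26). The untreated value was -0.04 (adjusted p = 0.967) without hyperoxia untreated replicate 1, which stood at 11.8 CPM, and -1.24 (adjusted p = 0.00881) without replicate 2.

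Among the coregulators, NCOA3 fell in hyperoxia without ATRA. Hyperoxia libraries stood at 234 and 245 CPM with vehicle and 234 and 222 CPM untreated, against the normoxia values of 359 to 451 CPM given above, with no overlap. The log2 fold change was -0.59 with vehicle (SE 0.14, adjusted p = 0.00571) and -0.87 untreated (SE 0.15, adjusted p = 0.000785). The untreated call held in all 14 fits that left out 1 library, with values from -1.02 to -0.80. Most of these fits left out a vehicle or ATRA library, which enters this comparison only through the shared fit. With only the untreated libraries fitted, the value was -0.88 (adjusted p = 0.107, edgeR). The call with vehicle was lost only without hyperoxia vehicle replicate 1 (-0.58). In the presence of ATRA the difference was -0.22 (95% interval -0.46 to 0.03, adjusted p = 0.202), and it was -0.37 (adjusted p = 0.0193) without hyperoxia ATRA replicate 1. NCOR1 stood at 302 and 295 CPM with vehicle, 288 and 306 CPM untreated and 343, 328 and 289.7 CPM with ATRA in hyperoxia. In normoxia it stood at 364 and 332 CPM with vehicle, 400.4 and 331 CPM untreated and 339.6, 327 and 323 CPM with ATRA. The libraries without ATRA did not overlap between exposures and those with ATRA did. NCOR1 had log2 fold changes of -0.22 with vehicle (-0.48 to 0.04), -0.30 untreated (-0.57 to -0.03, adjusted p = 0.131) and -0.04 with ATRA (-0.26 to 0.17), and fell by 0.26 (adjusted p = 0.0495) in the 13-library fit with pooled controls. Overlapping TTC19 was at -0.21 with vehicle, 0.10 with ATRA and -0.84 untreated (adjusted p = 0.592, 0.742 and 0.0488, edgeR). In hyperoxia untreated it stood at 27.4 CPM in replicate 1 and 48.5 CPM in replicate 2. The part of TTC19 in the NCOR1 difference was not tested. The values for NRIP1 were -0.08 (-0.45 to 0.28) with vehicle, -0.26 (-0.68 to 0.16) untreated and -0.19 (-0.48 to 0.10) with ATRA, the last being -0.38 (adjusted p = 0.0438) without normoxia ATRA replicate 3. PPARD had 0.00 (-0.77 to 0.78) with vehicle, 0.15 (-0.47 to 0.76) with ATRA and 0.73 (-0.19 to 1.65) untreated, the last from libraries at 31.8 and 17.9 CPM in hyperoxia and 11.7 and 18.5 CPM in normoxia. Without hyperoxia untreated replicate 1 the untreated values were 0.25 for PPARD, -0.26 for NCOR1 and -0.27 for NRIP1 (adjusted p = 0.808, 0.398 and 0.563), and in that fit 2 of 9 genes passed (RXRB and NCOA3), where 10.5% of 16503 tested genes did. Without replicate 2, which leaves the library that stood apart as the only untreated one in hyperoxia, 4 of 9 passed (RARG, RXRA, PPARD and NCOA3), where 43.6% of 16884 tested genes did. RXRA and PPARD were then at 0.68 and 1.02 (adjusted p = 0.0298 and 0.0461). The median log2 fold change over all genes was -0.10 between untreated libraries, against 0.01 in the other 2 oxygen comparisons.

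NCOA3 and NCOR1 set side by side show how the coactivator moved relative to the corepressor. The ratio of their levels per kb was 2.09 and 2.17 in the untreated and 1.83 and 2.01 in the vehicle libraries of normoxia. It was 1.38, 1.49 and 1.43 in normoxia with ATRA, and in hyperoxia 1.51 and 1.35 untreated, 1.44 and 1.54 with vehicle and 1.42, 1.11 and 1.26 with ATRA. The 4 normoxia libraries without ATRA were above the other 10 libraries. The ratio uses 1 exon length per gene and was not tested.

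Whether ATRA acted differently at the 2 oxygen exposures was tested by an interaction term. None of the 9 genes passed, where 0.14% of all tested genes did (21 genes, with 1078 at an unadjusted p under 0.05 and 96 by DESeq2). For NCOA3, lower with ATRA in normoxia and little changed in hyperoxia, the difference of log2 fold changes was 0.37 (95% interval -0.01 to 0.75, adjusted p = 0.701, edgeR). For RARB it was -0.20 (-1.22 to 0.82) and for NRIP1 -0.11 (-0.58 to 0.36). The remaining 6 ranged from 0.06 for RARA to 0.36 for RXRA, and no member had an unadjusted p under 0.05.

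Ethanol vehicle against the libraries called untreated gave no call among the 9 genes. The labels do not say whether the untreated libraries received ethanol. In normoxia 0% of 15339 tested genes passed (133 at an unadjusted p under 0.05, and 1 by DESeq2), and the member values ran from -0.22 for NCOA3 to 0.30 for RXRA on the log2 scale. In hyperoxia 0.00652% passed (1 gene, with 1366 at an unadjusted p under 0.05 and 10 by DESeq2), and the members ran from -0.85 for PPARD to 0.34 for RXRB. The PPARD interval was -1.78 to 0.07. Without hyperoxia untreated replicate 2, which leaves the library that stood apart as the only untreated library in hyperoxia, 3 of the 9 genes were called (PPARD, RARG and RXRB), where 33.3% of 16884 tested genes were. Without replicate 1 none of the 9 was called, where 0.00606% of 16503 tested genes were (1 gene, with 284 at an unadjusted p under 0.05), and the values ran from -0.37 for PPARD to 0.40 for RARB.

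The other genes of the pathway were taken from lists of 20 nuclear receptors, 14 corepressors and 16 coactivators, of which 16, 14 and 16 passed the filter on low counts. With ATRA, none of 16 tested other nuclear receptors and none of 14 other corepressors passed at either exposure. Among 16 other coactivators only MED1, a Mediator subunit that contacts liganded receptors, passed, with a log2 fold change of -0.56 in hyperoxia (adjusted p = 0.0495). Median values of the 3 lists for ATRA lay between -0.20 and 0.09. NCOA1 and NCOA2, the paralogues of NCOA3, had 0.26 and 0.15 in normoxia and 0.11 and 0.36 in hyperoxia, none past the threshold (adjusted p from 0.388 to 0.918). The retinoic acid carriers CRABP2 and FABP5 ranged from 0 to 5.54 and from 0.200 to 31.5 CPM over the grouped libraries, and neither passed in any comparison.

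For oxygen more genes of these lists passed, as did more of all tested genes (17.5% with vehicle and 22.7% with ATRA), so the counts say nothing about the lists as sets. With vehicle, 5 of 16 other nuclear receptors passed, 2 higher and 3 lower. VDR, the vitamin D receptor and another RXR partner, rose by 2.53 with vehicle and 2.61 with ATRA on the log2 scale (adjusted p = 0.000674 and 7.79e-05). NR1H2, the oxysterol receptor LXRβ, rose by 0.86 and 0.88 (adjusted p = 0.000514 and 4.29e-05). NR4A1, an orphan receptor of the immediate early response, was at -3.07 and -1.73 (adjusted p = 2.06e-06 and 0.000157). With ATRA, 8 of 16 passed, 5 higher and 3 lower, among them THRB, a thyroid hormone receptor, at 1.44 (adjusted p = 0.0033). Among 14 other corepressors 5 passed with vehicle and 5 with ATRA, 4 of them lower in each case. SIN3A, a histone deacetylase scaffold, was at -0.80 and -0.95 (adjusted p = 0.00171 and 3.03e-05). TBL1X, a subunit of the NCOR1 complex, was at -1.58 with vehicle (adjusted p = 0.000163), and PRAME, which binds liganded RAR, was at -0.69 and -0.70 (adjusted p = 0.00184 and 0.000202). LCOR was the list's higher member, at 0.75 and 0.56 (adjusted p = 0.00417 and 0.00683). Among 16 other coactivators 4 passed in each. The acetyltransferases CREBBP and EP300 rose by 0.99 and 0.84 with vehicle and by 0.87 and 0.46 with ATRA (adjusted p = 0.000874, 0.000294, 0.000381 and 0.00789), the opposite sign to NCOA3. NSD1, a histone methyltransferase that binds nuclear receptors, rose by 0.50 and 0.37 (adjusted p = 0.00839 and 0.0145). NCOA1 and NCOA2 had 0.43 and 0.02 with vehicle (adjusted p = 0.130 and 0.959). The list medians lay between -0.37 and 0.03, against 0.01 for all genes.

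**Figure D4:**
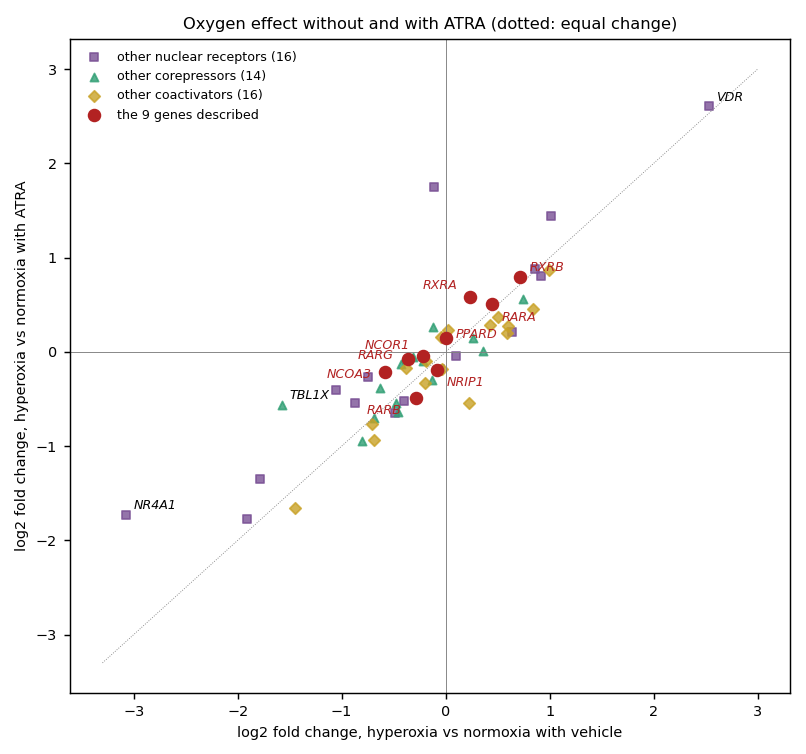
Log2 fold change of hyperoxia against normoxia with vehicle (horizontal axis) and with ATRA (vertical axis), from separate libraries, for the 9 genes (red circles) and the tested genes of 3 pathway lists. RXRB (0.72 and 0.80) and RARA (0.45 and 0.50) lie near the line of equal change, and NCOA3 (-0.59 and -0.22) lies above it, within a range set by VDR (2.53 and 2.61) and NR4A1 (-3.07 and -1.73).

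Likeness of pattern was measured for the members with the smallest p for ATRA in hyperoxia and for oxygen with vehicle, as Pearson's r of log2(CPM + 1) over the 14 grouped libraries against 15339 genes. These libraries share 6 groups, so r mostly reflects group means. For NRIP1 the 4 most alike were RAB11FIP1 (r = 0.91), TGFBI, PTPRJ and MUC12 (r = 0.89 each for the last 3). For NCOA3 the 5 most alike were PEG10 (r = 0.95), PPARG (r = 0.93), LMO7, TOB1 and HSPH1 (r = 0.91 each for the last 3). PPARG, the sister receptor of PPARD, stood at 36.4 ± 2.08 CPM (SD, n = 2) with vehicle and 23.0 ± 2.15 CPM (SD, n = 3) with ATRA in normoxia, and at 21.6 ± 1.67 CPM (SD, n = 2) with vehicle in hyperoxia. Among the members themselves, r was 0.80 for RARB with NRIP1, 0.78 for RARA with RXRB and -0.82 for RARA with NCOA3 over the same 14 libraries, and 0.80, 0.85 and -0.84 without hyperoxia untreated replicate 1. The r values of the named genes without that library were from 0.88 to 0.95.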

How the data were processed

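Total RNA of A549 cells was sequenced from stranded libraries. Per the labels and the methods, the authors trimmed reads with Trimmomatic 0.38, discarded reads under 50 nt, aligned to hg38 with HISAT2 and counted per gene with HTSeq, and the deposited values are raw read counts per gene symbol. Annotation release and strand setting of the counting are not given in the sources used here. Rows that name no gene were left out of library sizes, the no-feature row holding between 48.6% and 55.3% of each file's total. Groups came from the labels, and 1 library with conflicting labels entered no comparison.

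Counts were tested with edgeR 4.0.16 in R 4.3.3 (quasi-likelihood test, TMM sizes, filterByExpr with minimum count 10 and minimum total 15). The fit had 10 libraries in 4 groups, or 14 in 6 groups for comparisons with untreated libraries, which also gave the CPM. P-values were Benjamini-Hochberg adjusted over all tested genes, with 0.05 as the threshold. SE was taken as the absolute log2 fold change over the square root of F, and 95% intervals from SE and the fit's degrees of freedom. The procedure was run on simulated counts with 200 genes changed and the same spread assumed for every gene. That run held no library that stood apart, so it does not show how the tests behave on these libraries. Gene positions and promoter sequences came from RefSeq for GRCh38.p14, where all 9 genes matched, and exon lengths from GENCODE. Alternatives were DESeq2 1.42.0, RLE sizes, no filter, only the groups compared, all 14 libraries, untreated or pooled controls, and leaving out each library. An additive model and fits of 13 libraries without hyperoxia untreated replicate 1 were added after seeing the data. ATRA and oxygen comparisons with vehicle share the vehicle libraries. The 9 genes and all lists were chosen with earlier results of these data known. Named were the 9 genes, up to 4 called genes per list with the smallest p, the paralogues NCOA1 and NCOA2, with VDR, RXRG, CRABP2 and FABP5, the 5 genes most alike in pattern, and genes overlapping a member with at least 10% as many counts. Some results named by these rules are not reported here. Plots used matplotlib 3.10.9.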

Additional observations from a re-analysis of the deposited data

How the results depend on the processing

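No paired analysis was possible because the labels give no replicate numbers shared between groups. The running library numbers in the titles do not state which libraries were cultured together, so no block was fitted on them. Groups had 2 or 3 libraries, and where leaving out 1 left a single library, it was assumed to vary like the other groups. With all 14 libraries in 1 fit, including hyperoxia untreated replicate 1, 1 of the 9 genes was called for oxygen with vehicle and 0 for ATRA at either exposure and for oxygen with ATRA, where RARA, RXRA and RXRB had adjusted p = 0.0692, 0.0530 and 0.0558 (edgeR). Without that library 2 were called for oxygen with vehicle, 2 for ATRA in normoxia, 0 in hyperoxia and 3 for oxygen with ATRA. Over all genes that fit called 2590, 179, 306 and 3438. Untreated in place of vehicle libraries gave 1 for oxygen, 1 for ATRA in normoxia and 0 in hyperoxia, where NRIP1 was at 0.65 (adjusted p = 0.140). Over all genes that setting called 2324, 67 and 66. The 13 libraries with pooled controls and the additive model each gave 4 for oxygen and 2 for ATRA in hyperoxia. Of all tested genes, 31.1% and 32.1% passed there for oxygen and 3.09% and 2.81% for ATRA. DESeq2 and no filter also gave 2 in hyperoxia, adding RARB (adjusted p = 0.0387 and 0.00482), where 492 and 522 of all genes were called. Fitting only the untreated libraries gave 0 (NCOA3 at -0.88, adjusted p = 0.107), where 58 of all genes were called.

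Over all genes, the 14-library fit called 1420 for oxygen with vehicle, 1975 with ATRA, 70 for ATRA in normoxia, 116 in hyperoxia and 4 for the interaction, against 2616, 3391, 187, 331 and 21. Oxygen with vehicle gave 4665 with only the groups compared, 4553 with pooled controls of 13 libraries and 4802 in the additive model. ATRA in normoxia gave 286 by DESeq2, 300 with no filter, 67 with untreated controls, 364 with 13 libraries pooled and 421 in the additive model, and ATRA in hyperoxia gave 522 with no filter, 66 with untreated and 182 with pooled controls of 14 libraries. The interaction gave 96 by DESeq2, 91 with no filter, 3 with untreated and 5 with pooled controls. Oxygen untreated gave 58 with only those groups against 2324, and vehicle against untreated in hyperoxia 89 with no filter and 10 by DESeq2 against 1, and in normoxia 3 and 1 against 0.

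Leaving out 1 library, the members called ranged from 0 to 2 for oxygen with vehicle, 0 to 3 and 0 to 1 for ATRA in normoxia and hyperoxia, 2 to 3 for oxygen with ATRA, 1 to 4 for oxygen untreated and 0 to 3 for vehicle against untreated in hyperoxia. Over all genes the same fits called 1386 to 3175, 56 to 267, 83 to 449, 2715 to 3359, 969 to 7364 and 1 to 5630, the highest for the last 2 being without hyperoxia untreated replicate 2. Some directions turned. PPARD for oxygen with vehicle was at -0.0089 with RLE sizes, -0.00069 with no filter, -0.0058 by DESeq2 and -0.022 with only the groups compared, and for ATRA in hyperoxia at -0.45 against untreated and -0.10 against pooled controls of 14 libraries. RXRA for ATRA in normoxia was at -4.87e-05 with no filter, NCOR1 at 0.013 in the additive model, and the NRIP1 interaction at 0.070 with untreated controls. Leaving out 1 library turned RARB (-0.88 to 0.97) and PPARD (-0.32 to 0.43) for oxygen with vehicle, PPARD (-0.040 to 0.71) and RXRA (-0.12 to 0.16) for ATRA in normoxia, RARG (-0.28 to 0.14), PPARD (-0.079 to 0.37) and NCOR1 (-0.10 to 0.014) for oxygen with ATRA, RXRB for oxygen untreated (-0.49 to 0.85), and the interactions of RARB (-1.49 to 0.37) and NRIP1 (-0.29 to 0.014). Of the values for single members with 1 library left out, 459 kept their direction and side of the threshold. A further 32 lost the call, 9 gained one and 16 changed direction. Under other settings 353 kept both, 15 lost the call, 16 gained one and 9 changed direction. Values that were never called count as kept. RARB in normoxia and NRIP1 in hyperoxia lost their call for ATRA in most fits that left out 1 library. The cause of these shifts was not tested. Depth limits RARB, with as few as 18 counts in a library, and PPARD, the member with the lowest median CPM.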

Other observations

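The library whose title names hyperoxia but whose treatment label names adipogenic differentiation was placed in no group. Its TMM size was taken over all 15 libraries, whereas the other CPM came from the fit of the grouped libraries alone. On that scale it held 59.6 CPM of RARA, 14.6 CPM of RARB, 31.4 CPM of RARG, 107 CPM of RXRA and 45.2 CPM of RXRB. It also held 15.3 CPM of PPARD, 265 CPM of NCOR1, 88.3 CPM of NRIP1 and 222 CPM of NCOA3. The 95% Poisson intervals, which cover counting error only, were 11.3 to 18.6 CPM for RARB and 209 to 236 CPM for NCOA3.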
